A study of Mus musculus with 768 samples.

Results

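Cytosolic ribosomal protein genes were followed through the first 48 h of a factor-driven conversion of mouse embryonic stem cells towards motor neurons. They were taken as the rows whose names start with Rpl or Rps followed by a number, with or without a closing A, X or L, together with Rplp0, Rplp1, Rplp2 and Rpsa. This gave 79 of the 27723 genes in the table, 49 of the large and 30 of the small ribosomal subunit. Among them are 6 paralogs, genes that resemble a standard ribosomal protein gene but are encoded elsewhere in the genome: Rpl10l, Rpl39l, Rpl22l1, Rps27l, Rpl7l1 and Rpl3l. The other 73 are called standard members below.

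All cells came from the stem cell line Ainv15(iNgn2.Isl1.Lhx3.V5), which carries a doxycycline-inducible cassette for 3 transcription factors, Ngn2, Isl1 and Lhx3, with a V5 tag. The line was grown as embryoid bodies, floating cell aggregates, formed 2 days before doxycycline was added at 3 µg/ml. Cells were taken at 0 h, the time of its addition, and at 6, 12, 18, 24, 30, 36 and 48 h. Viable cells, stained with fluorescein diacetate, were sorted singly, 96 at each time, and measured by SMART-Seq2, a full-length RNA sequencing method, here without molecular tags. The cassette is present in every group, the 0 h cells included, and no group without it was analysed here. Separate cultures are not named in the labels. Each time point is therefore 1 sample, no test was made, and every spread given below is between cells of 1 sample.

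Values are TPM, transcript abundances that are corrected for transcript length and have the same sum in each cell, so that levels of different genes can be compared and each value is a share. Of 768 cells, the 368 with at least 2000 genes above 0 were kept, 37, 53, 52, 56, 55, 57, 44 and 14 from the earliest to the latest time point. Their median number of genes was 2141 at 48 h and 2894 at 36 h, against 4268 to 7484 at the other times, and the reads behind a value are unknown. The time points fall into 2 sets in an order unrelated to time. The superoxide dismutase gene Sod1 averaged 518 to 807 TPM at 6, 18, 24 and 30 h and 19553 to 65262 TPM at 0, 12, 36 and 48 h, and Gapdh, a glycolytic gene, averaged 5409 to 11474 TPM in the first set and 1748 to 3665 TPM in the second. The labels speak of 2 library batches without saying which cells belonged to which. Comparisons are made within a set, and time and library cannot be told apart between sets. Cell identity followed the labels: the summed TPM of 7 pluripotency genes had a median of 5638 at 0 h, and at 30 h against 6 h 5 of the 6 that were expressed highly enough to compare were at least 2-fold lower, while 5 of 6 such neuronal genes were at least 2-fold higher. Lists of fibroblast, endoderm and blood genes had medians of at most 30.2 TPM at every time point except 12 h, where the 7 fibroblast genes summed to a median of 176 TPM.

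Ribosomal proteins are the protein part of the ribosome and are made in nearly fixed proportions, so their mRNAs are among the most abundant in dividing cells such as embryonic stem cells. Many of these mRNAs begin with a run of pyrimidines, the 5′ terminal oligopyrimidine tract, through which the growth-controlling kinase mTOR sets how actively they are translated. A few members have paralogs with restricted expression, some of them known from the testis or from blood cell development, which can take the place of the standard protein in the ribosome.

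The start windows below show this tract in 4 standard members, chosen because they have it, and the same window in the 3 paralogs with the most extreme fold changes. Each window runs from 30 bases before the annotated start to the first 20 bases of the transcript, 5′ to 3′, and the capitals mark its longest run of C and T.
Rpl15: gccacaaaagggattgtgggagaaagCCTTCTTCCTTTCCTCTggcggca
Rps18: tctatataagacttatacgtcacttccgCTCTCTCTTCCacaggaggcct
Rps6: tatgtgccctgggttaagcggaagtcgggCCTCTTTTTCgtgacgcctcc
Rplp2: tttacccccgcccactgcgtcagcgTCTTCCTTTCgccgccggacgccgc
Rpl22l1: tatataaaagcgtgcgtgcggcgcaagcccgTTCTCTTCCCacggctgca
Rpl10l: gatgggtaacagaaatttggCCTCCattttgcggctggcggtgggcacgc
Rpl39l: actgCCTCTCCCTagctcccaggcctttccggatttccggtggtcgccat
The sequences are from RefSeq, build GRCm38.p6. They lie at chr14:18270967-18271016 on the minus strand (Rpl15), chr17:33955646-33955695 minus (Rps18), chr4:86857348-86857397 minus (Rps6), chr7:141447621-141447670 plus (Rplp2), chr3:28805478-28805527 plus (Rpl22l1), chr12:66284382-66284431 minus (Rpl10l) and chr16:10170198-10170247 plus (Rpl39l). In Rpl15, Rps18, Rps6 and Rplp2 the run spans the annotated start. In Rpl22l1 a run of 10 pyrimidines begins at the second base of the transcript. In Rpl10l and Rpl39l the longest run lies wholly before the start, as it also does in the genes they resemble, Rpl10 and Rpl39, and in Rpl22 and Rpl41.

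RefSeq promoters, 250 bases before to 50 after the start, were found for 59 of the 79 members. A tract exactly at the start, C followed by at least 4 bases that are each C or T, was present in 13 of the 59 (22.0%), against 2.72% of the 15860 protein-coding genes of the table with a promoter. The 13 are Rpl14, Rpl15, Rpl28, Rpl35, Rpl35a, Rpl38, Rplp2, Rps6, Rps10, Rps15a, Rps18, Rps21 and Rps27. A tract beginning within 20 bases of the start was present in 79.7% of members and 54.3% of those genes. The 6-letter motif CCGGAA, searched on both strands of the whole window, was present in 55.9% of members and 21.9% of those genes. Read on the other strand it is TTCCGG, whose first 4 letters can overlap a pyrimidine tract.

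Members together made up a large share of each cell's TPM, with no steady trend over 6, 18, 24 and 30 h and a lower median at each later time of the other set. Their summed share had a median of 25.7% at 6 h, with cells between 15.0 and 48.7%. At 18 h the median was 20.7% and the cells spanned 3.97 to 50.6%. At 24 h the median was 26.0% (15.9 to 48.3%), and at 30 h it was also 26.0% (9.44 to 48.8%). The 30 h and 6 h cells thus overlapped almost wholly, and 18 h had the lowest median and the widest spread of the set. In the other set the median was 16.2% at 0 h (9.62 to 24.4%), 14.6% at 12 h (9.27 to 23.6%), 10.2% at 36 h (2.47 to 21.6%) and 9.89% at 48 h (3.68 to 15.1%). The medians at 36 and 48 h lay below those at 0 and 12 h, with overlapping cells, and these are the time points with the fewest genes per cell. Rows without a match in RefSeq took 12.6% of TPM at 18 h against 8.10% at 6 h, and 16.4% at 36 h against 8.83% at 0 h, in medians over cells. Of protein-coding TPM alone, members held 25.4% at 18 h against 29.8% at 6 h, and 12.7% at 36 h against 18.1% at 0 h. The part of depth in these differences was not tested.

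**Figure D1:**
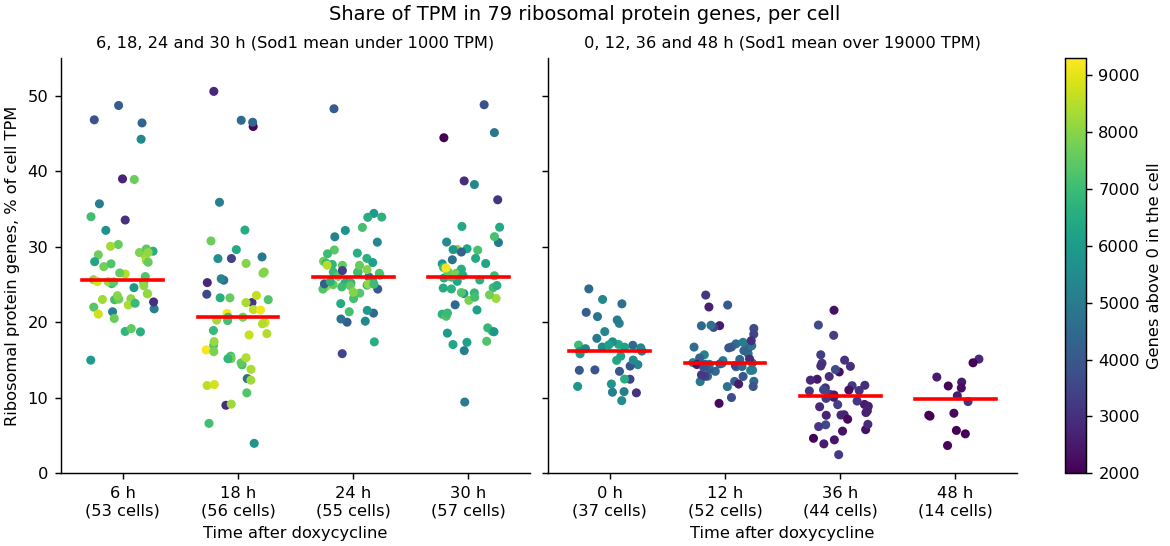
Summed TPM of the 79 ribosomal protein genes as a percent of each cell's total (vertical axis) by time after doxycycline, in the 2 sets of time points by Sod1. Points are cells coloured by their number of genes above 0, and red lines are medians, which lie between 20.7 and 26.0% on the left and between 9.89 and 16.2% on the right.

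In a few cells the ribosomal protein share of TPM was far higher than in the rest. Shares of 40% or more occurred in 4, 4, 1 and 3 cells at 6, 18, 24 and 30 h, and in 0 cells at 0, 12, 36 and 48 h. These cells had fewer genes: the median was 4231 genes in the 4 cells at 6 h against 7542 in the other cells of that time point, 3598 against 7540 at 18 h, and 3797 against 6554 at 30 h. Rps29, a very small protein of the small subunit, stood out in them, with a median of 38441 TPM against 4847 TPM in the other cells at 6 h and 83938 against 4332 TPM at 18 h. Rpl5, with a much longer transcript, went the other way, with a median of 723 TPM in the 4 cells against 2342 TPM in the others at 6 h. By transcript length, the 12 standard members under 500 bases held 11.5 to 18.0% of TPM in these 4 cells at 6 h and 4.43% in the median cell of that time point, while the 13 of at least 1000 bases held 2.41 to 4.76% in the 4 cells and 3.93% in the median cell. The share that picked these cells includes Rps29. The cells with the most Rps29 at 6 h, 218802 and 151785 TPM, lay under the limit, with shares of 33.55 and 39%. In those cells the 12 short members held 26.5 and 24.6% of TPM. Without Rps29 the median share of all members was 25.7% at 30 h and 25.0% at 6 h, so the medians do not rest on this gene.

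Within each set the members kept a nearly fixed order of levels. Over the 79 members, the Spearman correlation of mean TPM between time points was 0.92 to 0.98 within 6, 18, 24 and 30 h and 0.84 to 0.97 within 0, 12, 36 and 48 h. Between the sets it was 0.31 to 0.55. These are descriptions over genes measured in the same cells. In the first set the highest members, averaged over its time points, were Rps29 (9601 TPM), Rps4x (8612 TPM), the smallest ribosomal protein Rpl41 (8155 TPM), Rpl23a (6797 TPM) and the stalk protein Rplp0 (6507 TPM). In the second set they were Rps25 (12020 TPM), Rplp1 (8809 TPM), Rps12 (5620 TPM), Rpl6 (4608 TPM) and Rpl4 (4390 TPM). In the first set Rps29 had the highest mean only at 6 and 18 h, and Rps4x had it at 24 and 30 h. At 6 h the mean of Rps29 was 15498 TPM and its median 5099 TPM. The second set was also more uneven: at 0 and 12 h the top 3 members held 28.2 and 23.6% of all member TPM, against 11.9 and 9.76% at 6 and 30 h. At the bottom, apart from the paralogs, were Rps15a, Rpl22 and Rpl18, with averages of 192, 291 and 334 TPM in the first set. Exact sequence copies bear on such levels: in a median member 35.5% of all 50-base windows of its transcripts also occur in another annotated gene, in 26 members more than 50% do, and in Rpl35, the highest, 95.1% do. The sources used here do not say how the authors assigned such reads.

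**Figure D2:**
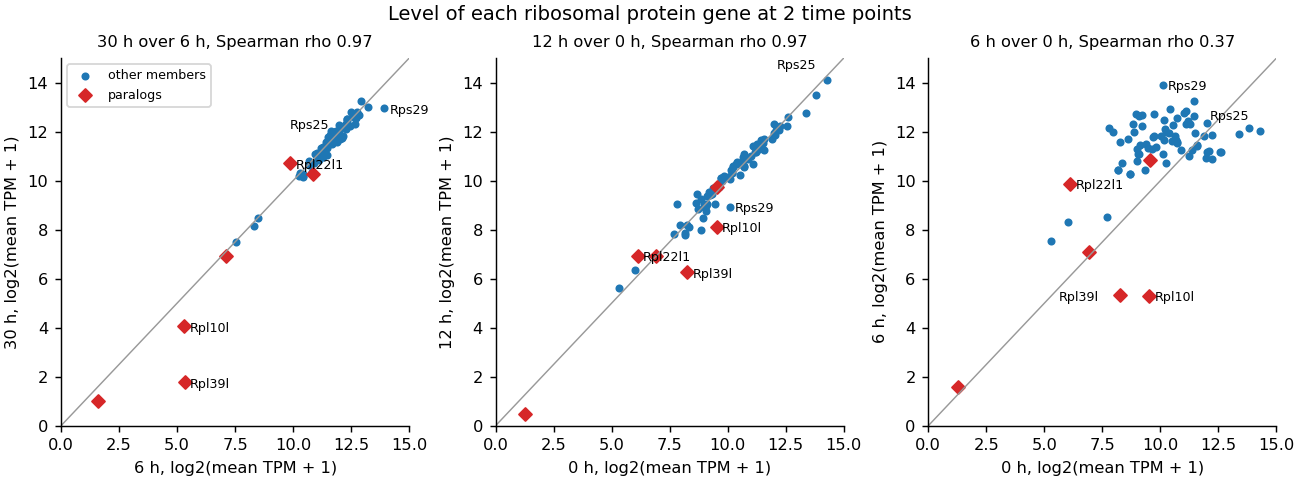
Mean TPM of each of the 79 members on a log2(mean TPM + 1) scale at 30 h over 6 h, 12 h over 0 h and 6 h over 0 h, with paralogs as red diamonds and the line of equal level in grey. Members lie close to the line within a set and scatter between sets, where 62 of the 79 are higher at 6 h.

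At 30 h, when neuronal genes were higher, the standard ribosomal protein genes lay within 2-fold of their 6 h means. Fold changes are log2 of (mean TPM + 1) ratios, on which changes of low genes look smaller than they are. Genes were kept if, at the time point where they were higher, they averaged 10 TPM or more and were above 0 in 25% or more of the cells. At 30 h against 6 h, 78 of 79 members passed this filter, all but Rpl3l. Of them 0 were at least 2-fold higher and 2 at least 2-fold lower, where 13.9% of all 6317 passing genes were higher and 6.03% lower by that measure. The 2 lower ones were paralogs, Rpl39l (-3.54) and Rpl10l (-1.25), and the 73 standard members lay between -0.98 and 0.39. The median over members was -0.07 against 0.20 over all genes, and the SD over members was 0.48 against 0.86. At 30 h 72 members but only 84 other genes averaged over 1000 TPM. Fold changes of genes at like level were not compared for any pair of time points. Relative to the median gene, the median member was at -0.27. The highest members were Rpl22l1 (0.83), Rpl10 (0.39), which helps join the subunits, and Rpl3 (0.31), which lies near the peptidyl transferase centre, and the lowest standard member was Rps29 (-0.98). With means rescaled so that the median gene is at 0, Rps29 was past 2-fold, at -1.18.

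The 24 h cells gave a like picture and the 18 h cells a lower level of most members. All 3 comparisons share the 6 h cells. At 24 h against 6 h, 0 members were higher and 3 lower, namely Rpl39l (-2.63), Rps29 (-1.81) and Rpl10l (-1.70), against 13.5% of all genes higher and 6.28% lower, and the median member was at -0.03. Across alternative settings built on means Rps29 ranged from -2.78 to -0.16 and Rpl10l from -2.12 to -0.54, so their place past 2-fold depends on which cells are averaged. At 18 h against 6 h the median member was at -0.35 against 0.08 over all genes, and 69 of 78 members lay below 0. There 1 member was at least 2-fold higher, Rpl22l1 (1.09), and 2 were lower, Rpl39l (-3.01) and Rpl21 (-1.11), against 11.8% and 7.36% of all genes. In all 96 wells of each time point Rpl22l1 was at 0.09. Rpl21, a large-subunit protein, had a median of 775 TPM at 18 h against 1724 TPM at 6 h, and was at 1597 TPM at 24 h and 1580 TPM at 30 h.

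Shorter members tended to be lower at the later times. Over the 73 standard members, transcript length and fold change had a Spearman correlation of 0.51 for 24 h and 0.45 for 30 h, both against 6 h, but of 0.08 for 18 h. Over the other passing genes it was 0.01 for 24 h and 0.08 for 30 h. For 24 h against 6 h the median of the 12 members under 500 bases was -0.32 and that of the 61 longer ones 0.01. Rps29, the most extreme of them, has a long upper tail: at 30 h its cells spanned 510 to 99823 TPM with a median of 3423 TPM, against 1646 to 218802 TPM with a median of 5099 TPM at 6 h.

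**Figure D3:**
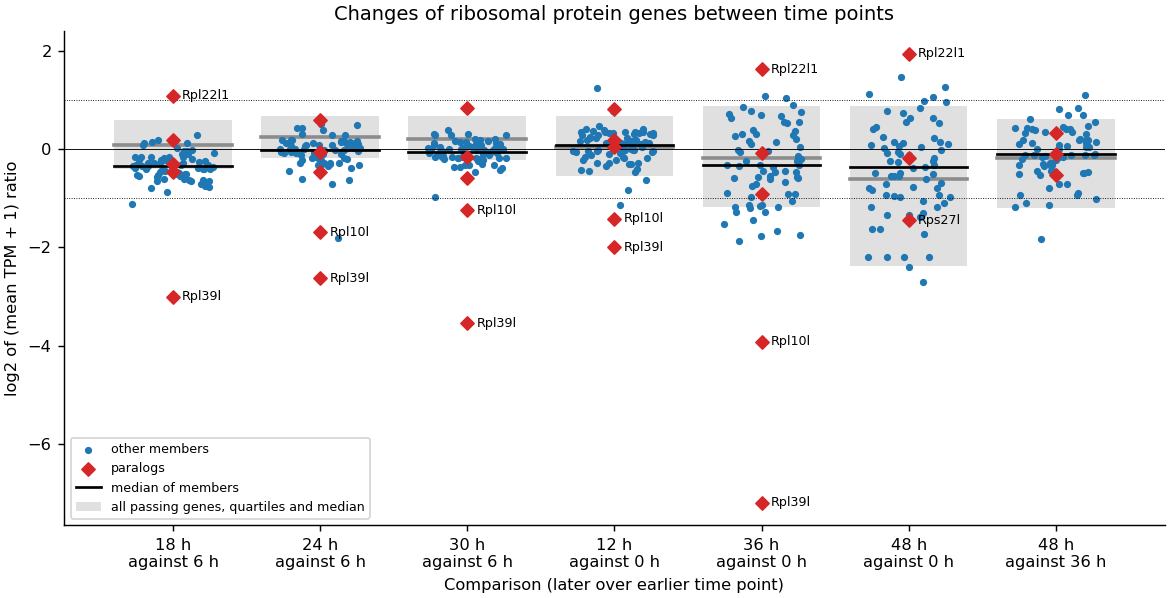
Log2 of (mean TPM + 1) ratios of members that passed the filter and were above 0 at both time points (blue dots, paralogs as red diamonds) in the 7 comparisons, with the median of members in black and the quartiles and median of all passing genes in grey. Dotted lines mark 2-fold. At 30 h against 6 h all standard members lie between -0.98 and 0.39.

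Within the other set, 12 h against 0 h showed a similarly narrow range for most members. The median member was at 0.08 against 0.04 over all genes. Of the 78 that passed, 1 was at least 2-fold higher and 3 lower, where 17% of all 5848 genes were higher and 13% lower. Over all 96 wells of each time point, 3 members were higher and 19 lower, where 22.5% of all genes were higher and 22.9% lower, so the narrow range is that of the kept cells. Col1a2, a collagen gene and the only gene of the fibroblast list that passed, was at 2.24 in the kept cells, and its part in the result was not tested. Rps18, a protein of the head of the small subunit, was the higher one (1.23): its median was 431 TPM at 12 h (0 to 2002 TPM) against 89.4 TPM at 0 h (0 to 903 TPM), with much overlap between cells. Counted over all 96 wells of each time point, its difference turned to -0.54. Rpl39l (-2.00), Rpl10l (-1.42) and Rps29 (-1.15) were the lower ones, and Rpl22l1 (0.82) and Rpl15 (0.76), a large-subunit protein, came next above 0. Across alternative settings built on means the value of Rpl39l ranged from -3.02 to -0.74 and that of Rpl10l from -1.98 to -0.22.

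At 36 and 48 h the members were spread more widely, as were all genes, in cells with few genes. Past 2-fold at 36 h against 0 h were 3 of 78 members in the higher direction and 17 in the lower, where 22.5% of all genes were higher and 28.5% lower. The highest were Rpl22l1 (1.62), Rps18 (1.07) and Rpl15 (1.05) and the lowest Rpl39l (-7.20), Rpl10l (-3.93) and Rps12 (-1.88), which had a median of 2358 TPM at 36 h against 9521 TPM at 0 h. The value of Rpl10l rests on 1 cell and was at -8.11 when each time point's highest cell was left out. The values of Rpl22l1 and Rps18 turned below 0 under other settings. Col1a2 was at 1.55 at 36 h and 1.32 at 48 h, both against 0 h. At 48 h against 0 h, 5 members were higher and 20 lower, against 22.8% and 43.4% of all genes, and 2 of the 20, Rpl10l and Rpl39l, were listed at 0 in all 14 cells. At 48 h against 36 h, 1 of 76 passing members was higher and 5 lower, against 17.5% and 28.6%. The comparisons with 0 h share its cells. In these 3 comparisons of means the members' shares, 1.32 to 6.41% higher and 6.58 to 25.6% lower, were below those of all genes. With medians over cells the lower shares were near or above those of all genes: 43 of 78 members were lower at 36 h against 0 h, where 55.2% of all genes were, 45 of 78 at 48 h against 0 h, where 53.2% were, and 16 of 76 at 48 h against 36 h, where 14.9% were. With rescaled means 16 of 78 were higher and 11 lower at 48 h against 0 h, against 32.2% and 34.7% of all genes.

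Rpl10l is an intronless copy of the X-linked Rpl10 and Rpl39l a paralog of Rpl39, both known in mice for roles in sperm formation. They were the lowest members at 30 h against 6 h and at 12 and 36 h against 0 h. At 18 h against 6 h, however, Rpl10l was only at -0.30, and from -0.79 to 0.61 across alternative settings built on means. In the first set Rpl10l averaged 38.6 ± 43.5 TPM at 6 h (SD, n = 53 cells), 31.2 ± 51.5 TPM at 18 h (n = 56), 11.2 ± 26.7 TPM at 24 h (n = 55) and 15.7 ± 26.5 TPM at 30 h (n = 57). It was above 0 in 84.9% of cells at 6 h (exact 95% binomial interval 72.4 to 93.3%), 58.9% at 18 h, 34.6% at 24 h and 35.1% at 30 h (22.9 to 48.9%). Its cells spanned 0 to 89.7 TPM with a median of 0 at 30 h, against 0 to 187 TPM with a median of 23.0 TPM at 6 h, so the share of cells with the transcript differed more than the range. Across alternative settings built on means its value at 30 h against 6 h ranged from -2.40 to -0.65. Rpl10 itself was above 0 in all cells of these time points, with medians of 3293, 3146, 4724 and 4345 TPM at 6, 18, 24 and 30 h.

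Rpl39l averaged 39.0 ± 66.1, 3.97 ± 16.6, 5.48 ± 23.4 and 2.43 ± 11.4 TPM at 6, 18, 24 and 30 h. Cells with any Rpl39l made up 60.4% at 6 h (46.0 to 73.6%), 16.1% at 18 h, 10.9% at 24 h and 5.26% at 30 h (1.10 to 14.6%). The highest cell had 70.6 TPM at 30 h against 379 TPM at 6 h. Across alternative settings built on means its value at 30 h against 6 h ranged from -4.55 to -1.98. Both paralogs were thus seen most often in the earliest cells of the set, when the pluripotency genes were also higher. Both transcripts were present in 1 of 57 cells at 30 h, against 28 of 53 cells at 6 h. From cell to cell within 6 h, their correlation with the pluripotency factor Pou5f1 was near 0 (Spearman rho 0.06 for Rpl10l and 0.07 for Rpl39l, over 53 cells of 1 sample). At 18, 24 and 30 h it was 0.205, 0.058 and 0.123 for Rpl10l and -0.100, -0.082 and 0.247 for Rpl39l. A link to pluripotency was not tested.

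In the second set the same paralogs started from higher levels and were also lower later. Rpl10l averaged 738 ± 811 TPM at 0 h, 275 ± 442 TPM at 12 h and 47.6 ± 306 TPM at 36 h. These times had it in 75.7, 50.0 and 6.82% of cells. At 36 h it was above 0 in 3 cells, the highest of which had 2031 TPM, and without that cell the mean was 1.49 TPM. At 48 h it was listed at 0 in all 14 cells, where 3 cells, the limit taken for a count of 0, are 21.4% and the exact 95% binomial interval reaches 23.2%. Rpl39l averaged 304 ± 400 TPM at 0 h, 75.5 ± 236 TPM at 12 h and 1.08 ± 7.16 TPM at 36 h. Its share of cells was 70.3, 25.0 and 2.27%, again with 0 of 14 at 48 h. At 0 h Rpl39l exceeded Rpl39 in 12 of 37 cells and Rpl10l exceeded Rpl10 in 5, which no cell showed for either pair at 6, 18, 24 or 30 h. The paralogs share 0 exact 50-base windows with Rpl10 and Rpl39. Of the windows of Rpl10l 7.60% occur in another annotated gene, and of those of Rpl39l 0%.

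Rpl22l1, the paralog of Rpl22 that is known in mice to compensate for its loss, had the highest fold change of all members at each later time point of the first set. It averaged 942 ± 1035 TPM at 6 h, 2001 ± 1184 TPM at 18 h, 1424 ± 1136 TPM at 24 h and 1678 ± 1783 TPM at 30 h. The medians were 667, 2001, 1190 and 1122 TPM, and the cells spanned 177 to 9750 TPM at 30 h against 0 to 5947 TPM at 6 h, so they overlapped. Rpl22 averaged 238 to 330 TPM at these times, with its lowest mean at 18 h. Rpl22l1 therefore made up 75.0, 89.4, 81.2 and 85.6% of the summed means of the pair, and was above Rpl22 in 55 of 57 cells at 30 h and in 41 of 53 at 6 h. In all 96 wells of each time point, its value at 30 h against 6 h was -0.05. In the second set it was lower, with medians of 13.7 TPM at 0 h, 20.6 TPM at 12 h and 0 at 36 and 48 h. It was above 0 in 13 of 44 cells at 36 h and 4 of 14 at 48 h, so its means of 213 and 265 TPM there rest on few cells. Of the windows of Rpl22l1 58.9% occur in another annotated gene and 0 in Rpl22.

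Rps27l, a paralog of Rps27 known as a target of the tumour suppressor p53, was a regular member by its level. It averaged 1838, 2096, 1327 and 1220 TPM at 6, 18, 24 and 30 h and was above 0 in every kept cell of these times, with fold changes against 6 h of 0.19 for 18 h and -0.59 for 30 h. Rps27 was higher in most of these cells, and Rps27l was above it in 4 of 57 cells at 30 h and 14 of 56 at 18 h. In the second set Rps27l was instead the higher of the pair in 32 of 52 cells at 12 h and 25 of 37 at 0 h. At 36 and 48 h it was the higher in 15 of 44 and 4 of 14 cells, where 38 and 8 had either transcript. Rpl7l1, whose relatives in yeast act in ribosome assembly, had means of 98.4 to 136 TPM at all 8 time points. Its medians were 97.3 to 137 TPM in the first set, but 61.9, 31.3, 6.48 and 29.0 TPM at 0, 12, 36 and 48 h, and it was above 0 in 54.6% of cells at 36 h against 94.6% at 0 h. Rpl3l, known from heart and skeletal muscle, averaged at most 1.99 TPM at any time and was above 0 in at most 3 cells of a time point.

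**Figure D4:**
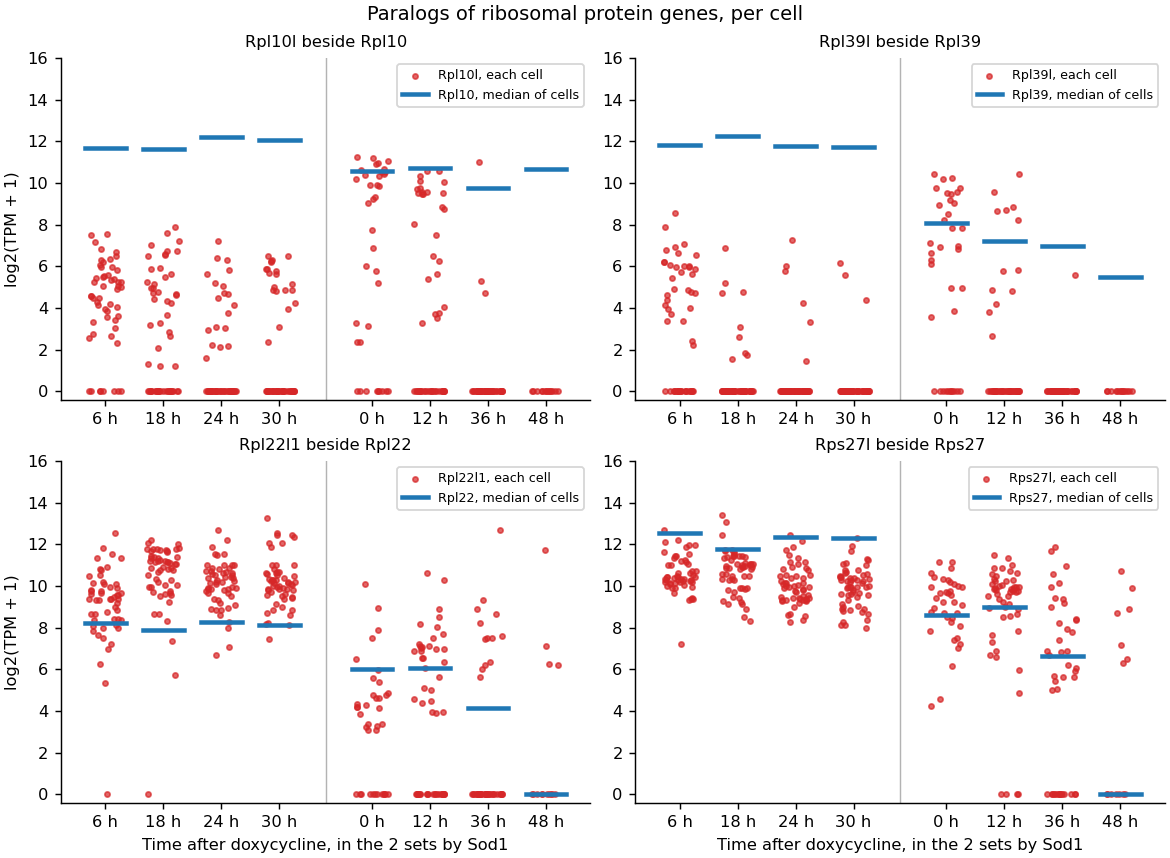
Level of 4 paralogs in each cell (red points) and the median of the gene each resembles (blue lines) on a log2(TPM + 1) scale, by time in the 2 sets divided by the grey line. Rpl10l and Rpl39l are above 0 in fewer cells at the later times of each set, while Rpl22l1 lies above Rpl22 in most cells at 6, 18, 24 and 30 h.

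Members with known roles outside or at the edge of the ribosome differed little at 30 h against 6 h. The stalk proteins recruit elongation factors: Rplp0 was at 0.08, Rplp1 at -0.33 and Rplp2 at -0.15. Rplp1 was the second highest member of the second set, with medians of 11644 TPM at 12 h and 13293 TPM at 0 h, where Rplp0 had 692 and 870 TPM. In the first set their order was the opposite, with 3443 TPM for Rplp1 and 7471 TPM for Rplp0 at 30 h. Rpl5 and Rpl11, which carry the 5S RNA and can stabilise p53 by binding Mdm2, were at 0.14 and -0.02 at 30 h against 6 h. Rpsa, also known as the laminin receptor, was at 0.16, Rps27a, made as a fusion with ubiquitin, at -0.09, and the X-linked Rps4x at 0.30. Rps4x had medians of 8090, 6672, 10095 and 9953 TPM at 6, 18, 24 and 30 h.

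The balance between the subunits had similar medians at 6, 18, 24 and 30 h and differed more among the other times. Summed TPM of the 49 large-subunit members over that of the 30 small-subunit members had a median over cells of 1.20, 1.26, 1.26 and 1.27 at 6, 18, 24 and 30 h, and of 1.20, 1.31, 1.41 and 1.24 at 0, 12, 36 and 48 h. The cells spanned 0.62 to 1.44 at 30 h against 0.19 to 1.55 at 6 h, where the lowest cell had 218802 TPM of Rps29. In the second set they spanned 0.75 to 3.655 at 36 h and 0.83 to 2.57 at 48 h, against 0.75 to 1.56 at 0 h. Per member, as a ratio of geometric means of TPM + 1, the large subunit was instead the lower, at 0.49 to 0.64, and its members include 5 of the 6 paralogs.

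From cell to cell the members varied less than other genes at 6, 18, 24 and 30 h. The median coefficient of variation over passing members was 0.44, 0.66, 0.39 and 0.45 at 6, 18, 24 and 30 h, against 1.10, 1.32, 1.28 and 1.32 over all passing genes. Part of this goes with level: among genes with a mean over 1000 TPM, it was 0.42 for 72 members and 0.57 for 84 other genes at 30 h, and 0.44 for 71 members and 0.65 for 88 other genes at 6 h. At that level the order was the opposite at the sparse late times, with 0.92 for 39 members and 0.86 for 72 other genes at 36 h, and 0.92 for 36 members and 0.84 for 83 other genes at 48 h. The least variable members were Rps3a at 30 h (0.21) and Rpl14 at 6 h (0.27), and the most variable Rps29 at both. Members also moved together, as the Spearman correlation of a member with the sum of all others had a median of 0.39, 0.65, 0.46 and 0.52 at 6, 18, 24 and 30 h, and of 0.23 to 0.32 in the second set. Below 0 were 9, 3, 7 and 7 standard members at these times, with Rpl5 the lowest at each, at -0.59, -0.31, -0.28 and -0.64, while Rpl11 was at 0.59, 0.65, 0.52 and 0.50. This varied with transcript length: across the 73 standard members, length and this correlation had a Spearman rho of -0.51, -0.47, -0.28 and -0.57 at 6, 18, 24 and 30 h, and of 0.04 to 0.21 in the second set. Cells of a time point come from 1 sample and differ in depth, and the part of depth in these values was not tested.

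Other genes of the translation machinery were set beside the members. Of 30 translation factor genes 29 passed at 30 h against 6 h, with 0 at least 2-fold higher or lower and a median of 0.09. The largest differences were Eef2 (0.68) and Eef1a1 (0.65), both elongation factors, and the initiation factor gene Eif4b (0.67). Eef1a1 averaged 16825 TPM at 30 h against 10755 TPM at 6 h, more than any ribosomal protein gene at 30 h. Among ribosome components whose names fall outside the rule, Fau, Gnb2l1 and Rpl36al lay between -0.50 and 0.02. Of 75 mitochondrial ribosomal protein genes, which serve a separate ribosome, 73 passed with a median of -0.17, and 1, Mrps18b (-1.15), was at least 2-fold lower.

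Ribosome assembly genes had a lower median than the ribosomal protein genes themselves at 30 h against 6 h. Of 31 genes for ribosomal RNA synthesis, modification and assembly, all passed there with a median of -0.41, against -0.07 for the members and 0.20 for all genes, and 1 was at least 2-fold lower, where 6.03% of all genes were. The lowest were Nop10 (-1.17) and Nhp2 (-0.90), parts of the complexes that modify ribosomal RNA, and Polr1b (-0.87), a subunit of RNA polymerase I. Nhp2 averaged 386 TPM at 30 h against 720 TPM at 6 h. At 24 h against 6 h the median was -0.43 with 0 genes at least 2-fold lower, and at 18 h against 6 h it was -0.73 with 8 lower, where 7.36% of all genes were. At 12 h against 0 h, 8 of 31 were at least 2-fold lower, Polr1b among them at -2.73 (8.75 TPM at 12 h against 63.7 TPM at 0 h), with a median of -0.25, where 13% of all genes were lower. At 36 h against 0 h 12 of 28 passing genes were lower, where 28.5% of all genes were. Each list's counts and median are descriptions, with no test of the difference between lists.

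Within time points the ribosomal protein share correlated weakly or moderately with the neuronal gene Stmn2, most negatively at 0 and 36 h. Stmn2, a microtubule regulator, was above 0 in 24 of 53 cells at 6 h, 46 of 56 at 18 h, 48 of 55 at 24 h and 49 of 57 at 30 h. The Spearman rho between it and the member share was -0.13, -0.21, -0.19 and -0.05 at these times, and -0.40, 0.08, -0.38 and -0.08 at 0, 12, 36 and 48 h. With the number of genes held constant, rho was -0.09, -0.23, -0.20 and -0.07 at 6, 18, 24 and 30 h. In the other set it was then -0.42, 0.08, -0.29 and -0.22. At 30 h the median share was 25.6% (9.44 to 48.8%) in the 49 cells with Stmn2 and 26.9% (18.8 to 38.7%) in the 8 without, and at 18 h it was 19.9% (3.97 to 50.6%) in 46 cells and 26.6% (16.1 to 45.9%) in 10. At 36 h it was 8.82% (2.47 to 21.6%) in 23 cells and 11.6% (4.64 to 19.6%) in 21, with medians of 2701 and 3139 genes. At 0 h it was 13.0% (9.62 to 17.4%) in 10 cells and 16.7% (10.7 to 24.4%) in 27. At 24 h it was 25.4% (15.9 to 48.3%) in 48 cells and 28.5% (25.1 to 31.3%) in 7. At 12 h the cells with Stmn2 were instead the higher, at 16.7% in 5 cells against 14.6% in 47. The part of depth was not tested. Among single members at 30 h, the rho with Stmn2 ran from -0.36 (Rps27l) to 0.26 (Rpsa), with a median of -0.03. It was negative for 43 members and positive for 36 there, and negative for 66 and positive for 13 at 36 h. The ranges with and without Stmn2 overlapped at every time point.

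**Figure D5:**
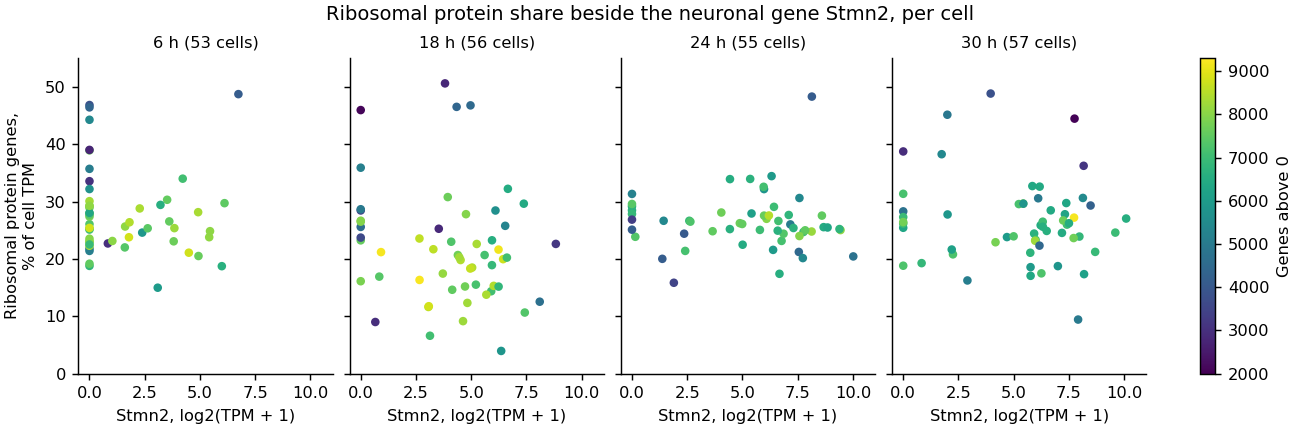
Share of TPM in ribosomal protein genes (vertical axis, percent) against Stmn2 on a log2(TPM + 1) scale (horizontal axis) in each cell at 6, 18, 24 and 30 h, coloured by the number of genes above 0. Cells with and without Stmn2 overlap in share, but at 24 h the 7 without it span only 25.1 to 31.3%, against 15.9 to 48.3% in the 48 with it. Spearman rho is -0.13, -0.21, -0.19 and -0.05.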

How the data were processed

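Single-cell SMART-Seq2 libraries of 8 time points were read with single-end reads of 50 bases, 325000 per cell on average, per the labels' protocols. The authors deposited TPM values for 27723 genes and 768 cells in 1 table. Per the submitters' processing notes, bcl2fastq, Picard and the mm10 genome were used, without versions. For the aligner and annotation: not given in the sources used here. TPM keeps no depth, so intervals cover the number of cells only. As TPM is a share, abundant genes depress the rest, and in short transcripts few reads give high values.

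Time points were taken from the labels. From the deposited TPM, means over kept cells, shares of cells above 0 with exact binomial intervals, and log2 of (mean + 1) ratios were computed. A gene whose mean was 0 at 1 of the time points is counted in its direction, with no fold printed. Copies were sought as exact 50-base windows among GENCODE M21 transcripts. Transcript length is the median over coding transcripts. The fold calculation was run on simulated cells with 200 raised genes. Each gene was drawn on its own from cells of 1 time point. Depth shared by the genes of a cell was therefore not simulated, and the run checks the calculation only. Calculations used scipy 1.17.1, pandas 2.3.3 and numpy 2.4.6 under Python 3.11.15, and figures matplotlib 3.10.9.

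Members and lists were chosen with earlier results of these data known. Named were the 5 members of highest mean in each set, the 3 members at each end of the fold changes at 30 h against 6 h and at 12 and 36 h against 0 h, every paralog with the gene it resembles, 8 members for their roles, Stmn2, Sod1, Gapdh, and 3 genes of each other list. Further members, among them Rpl21, Rps15a, Rpl18, Rps3a, Rpl14 and Rpl35, and Polr1b at 12 h, were named after their values were seen, as was the limit of 40% for high shares. Alternatives were pseudocounts of 0.1 and 10, no filter, all cells, cells with at least 4000 genes or with fewer, medians over cells, rescaled means, odd-numbered or even-numbered cells, other denominators, shares without the 3 highest members, a detection limit of 10 TPM and geometric means. Added after seeing the data were means that leave out each gene's highest cell, shares without Rps29 and paralog shares in cells with at least 4000 genes. Protein sequences were not used here. The result for 1 gene of the lists is not reported here.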

Additional observations from a re-analysis of the deposited data

How the results depend on the processing

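No paired analysis was possible because each time point is 1 sample and the labels do not say that equal cell numbers share a source. Of 67 recomputed medians of member log2 fold changes 63 moved by less than the spread between cells, as did 76 of 78 median shares. That spread is wide: the SD of the share over cells was 7.26% of TPM at 6 h and 9.75% at 18 h. It exceeds the difference between these times' medians, so the limit cannot say whether such differences hold. Counts of members past 2-fold moved more: by over 1.5 times, or to or from 0, in 23 of 67 for higher and 17 of 67 for lower members. Of 1303 values of selected single members 51 moved by at least 1 on the log2 scale. A further 9, at least 2-fold in the main setting, changed sign. Sign changes of smaller values were not counted but occurred, as for Rplp0 at 12 h against 0 h (0.22, and down to -0.96). Of 228 shares of cells with a paralog, 53 left the exact interval of the main share, most of them over all wells, where Rpl10l was above 0 in 20.8% at 30 h and 49.0% at 6 h, and Rpl39l in 3.12% and 34.4%. At 36 and 48 h, where few genes were seen per cell, most counts depend on the setting, and the cause was not tested. Cells with at least 4000 genes were too few at 36 and 48 h, and the correlation in cells with Stmn2 was not run where these were too few.

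With all cells, members higher and lower numbered 0 and 1 at 18 h against 6 h, with 1 lower at 24 h against 6 h. Against 0 h they numbered 3 and 19 at 12 h and 1 and 11 at 36 h, with 2 higher at 48 h. Of all genes, 21.2% were higher and 13.4% lower at 18 h, and 13% lower at 24 h, against 6 h. Against 0 h, 22.5 and 22.9% were higher and lower at 12 h, 18.8 and 26.5% at 36 h, and 14.5% were higher at 48 h. Rps18 turned to -0.54 at 12 h and -0.059 at 36 h, and Rpl22l1 to -0.89 at 36 h and -0.63 at 48 h, against 0 h. With medians over cells, 9 were lower at 18 h against 6 h, 3 higher at 12 h against 0 h, 0 higher and 43 lower at 36 h against 0 h (median -1.13), 45 lower at 48 h against 0 h (median -1.21) and 8 higher and 16 lower at 48 h against 36 h. Of all genes by medians, 21% were lower at 18 h against 6 h and 4.6% higher at 12 h against 0 h. At 36 h against 0 h 3.29% were higher and 55.2% lower, and at 48 h against 0 h 53.2% were lower. At 48 h against 36 h 12.9% were higher and 14.9% lower. Rpl22l1 turned to -3.87 at 36 and 48 h, where its median was 0, so that the pseudocount sets this value. With rescaled means, 5 were higher at 36 h against 0 h, 16 higher and 11 lower at 48 h against 0 h (median 0.25), and 3 higher and 1 lower at 48 h against 36 h. Of all genes by rescaled means, 26.3% were higher at 36 h against 0 h. At 48 h, 32.2% were higher and 34.7% lower against 0 h, and 20.7 and 25.2% against 36 h. In odd-numbered cells 1, 3, 8, 9 and 4 were higher at 30 h against 6 h, 12, 36 and 48 h against 0 h and 48 h against 36 h, and Rpl22l1 turned to -0.64 at 36 h. In even-numbered cells 1 was lower at 30 h against 6 h, 1 higher at 36 h, 3 higher and 40 lower at 48 h against 0 h (median -1.06), 6 higher and 23 lower at 48 h against 36 h, and Rpl22l1 turned to -0.17 at 48 h. For odd-numbered and even-numbered cells the shares over all genes were not computed, so these counts are not read as results about the members. Without each gene's highest cell, 2 were higher at 12 h, 0 at 36 h, 2 higher and 33 lower at 48 h against 0 h, and 0 higher and 13 lower at 48 h against 36 h, and Rpl22l1 turned to -0.82 at 48 h. Of all genes in this setting, 17.6% were higher at 12 h and 18.7% at 36 h against 0 h. At 48 h, 14.7% were higher and 57.5% lower against 0 h, and 11.1 and 40.6% against 36 h. With a pseudocount of 10, 1 was lower at 30 h against 6 h. At 48 h against 36 h 3 were. With at least 4000 genes, 2 were higher at 12 h. For the pseudocount of 10 and for at least 4000 genes the shares over all genes were not computed either.

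In kept cells with under 4000 genes the median share was 41.6% at 30 h and 36.3% at 6 h. These were few cells, which spanned 36.2 to 48.8% at 30 h and 22.7 to 46.8% at 6 h, so the difference is not read as a result. The Spearman correlation with Stmn2 was 0.075 at 0 h and 0.040 at 6 h for mean log2 levels, and -0.20, 0.19, 0.079, -0.021 and -0.15 at 0, 6, 18, 24 and 36 h in cells with Stmn2. With geometric means the subunit ratio was 0.64, 0.52, 0.60, 0.50, 0.49, 0.49, 0.53 and 0.54 from 0 to 48 h.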

Other observations

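The cells of each time point carry numbers from 1 to 96, and some numbers recur among the cells with the highest ribosomal protein share. Number 25 was among the cells with a share of 40% or more at 6, 18 and 30 h, and number 95 at 6 and 30 h. Over the numbers kept at both time points, the member share had a Spearman rho of 0.53 between 30 and 6 h (38 numbers), 0.40 between 30 and 24 h (41 numbers) and 0.22 between 24 and 6 h (33 numbers), but of -0.12 between 30 and 18 h (35 numbers). It was 0.23 to 0.75 in 5 pairs within 0, 12, 36 and 48 h (9 to 27 numbers), and -0.36 to 0.62 in 16 pairs between the sets (9 to 36 numbers). For the number of genes above 0 it was 0.42 to 0.70 in all 6 pairs within 6, 18, 24 and 30 h, -0.04 to 0.20 in 5 pairs within 0, 12, 36 and 48 h and -0.45 to 0.37 between the sets, with 3 numbers shared by 48 and 0 h, too few for a value. The labels do not say whether a number marks a well position, and the cells with equal numbers are not the same cells.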
